A study of Homo sapiens with 4 samples.

Results

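The EGFR family comprises 4 receptors, EGFR, ERBB2, ERBB3 and ERBB4, and the ligands followed here are AREG, EREG, TGFA, HBEGF and BTC. These 9 genes were taken by name from the 26475 genes of the count tables and described across 4 libraries of mammospheres. Mammospheres are spheres that tumour cells form without attachment, and the cells were MDA-MB-468, a basal-like triple-negative breast cancer line known for an amplified EGFR gene. All cells carried spCas9 and a doxycycline-inducible guide RNA and were a sorted pool rather than a clone. CTL cells had a control guide and no doxycycline, CTL+dox cells the same guide with doxycycline, gRNA2 cells a TCOF1 guide without doxycycline, and gRNA2+dox cells that guide with doxycycline. The labels call the first 3 wild type and gRNA2+dox a TCOF1 knockout. The mammosphere medium of all groups held added EGF, itself an EGFR ligand, and several plates were pooled per group. Each condition was 1 library, so the intervals given cover counting error only, and guide, culture and library cannot be told apart.

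The receptors are membrane tyrosine kinases that pair with each other once a ligand is bound. The ligands are made as membrane-anchored precursors and are released by proteases such as ADAM17 and ADAM10. AREG and TGFA bind EGFR, while EREG, HBEGF and BTC bind both EGFR and ERBB4. ERBB2 has no known ligand and acts as a partner of the other receptors, and ERBB3 binds neuregulins and signals mainly through PI3K.

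The libraries held 19960644 to 26322847 reads assigned to genes. Reads on TCOF1, the gene that the guide cuts, checked the labels: there were 1019 and 754 reads in CTL cells without and with doxycycline and 1318 and 437 in gRNA2 cells. Its log2 ratio in gRNA2+dox was -1.34 against gRNA2 and -0.74 against CTL+dox, and the library labelled CTL+dox was itself lower than CTL by a log2 ratio of -0.58. All 8 basal markers were detected, together at 19931 to 22040 CPM (reads of a gene per 1000000 reads of a library, scaled by the trimmed mean of M-values, TMM), while ESR1 had 4 to 13 reads and PGR 0 to 7. The 4 luminal markers were also detected, together at 167 to 216 CPM, mostly GATA3 (2525 to 4169 reads). Of other cell types, leukocyte markers summed to 10.8 to 12.96 CPM, mostly CD14, with PTPRC at 1 or 2 reads in every library. Fibroblast markers summed to 16.7 to 21.3 CPM, mostly COL1A1, with at most 3 reads each for COL3A1, DCN and LUM. The 3 endothelial markers summed to 0.916 to 1.54 CPM, mostly VWF (15 to 28 reads), with PECAM1 at 3 to 12 reads and CDH5 at 0.

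Of the 9 genes, 8 had at least 10 reads in at least 1 library, the filter that 15204 of all genes passed. ERBB4 did not. EGFR was the dominant receptor and AREG the dominant of these ligands by level per exon length. EGFR RNA was higher in both gRNA2 libraries than in both CTL libraries, and EREG RNA was lower in both. The other members past the filter stayed within a 1.23-fold range over the 4 libraries.

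**Figure D1:**
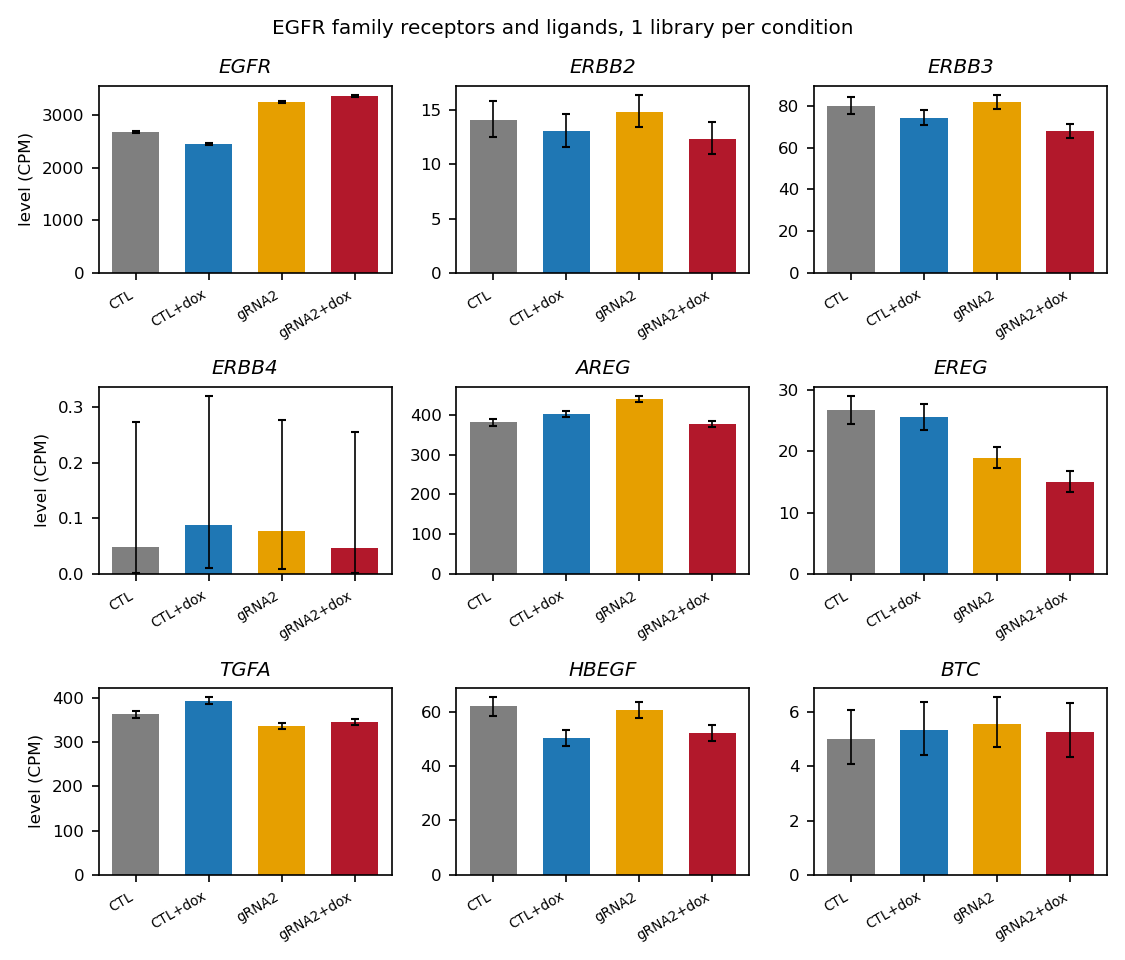
Level of each gene in CPM (vertical axes from 0, a scale for each gene) in the 4 libraries. Bars are 1 library each and error bars are exact 95% Poisson intervals of its count. EGFR stands higher in the gRNA2 cells and EREG steps down from 26.7 CPM in CTL to 15.02 CPM in gRNA2+dox, while ERBB4 rests on 1 or 2 reads.

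EGFR, on chromosome 7 (chr7:55019017-55211628, GRCh38), encodes the receptor of EGF. It had 54707 reads in CTL and 55292 with doxycycline, and 84853 in gRNA2 and 73514 with it, or 2679, 2455, 3258 and 3366 CPM in that order. The gRNA2 libraries were the high pair, with or without doxycycline. The order CTL+dox, CTL, gRNA2, gRNA2+dox was set by steps each larger than counting error. Against CTL+dox, gRNA2+dox was 1.37-fold higher (log2 ratio 0.46, exact 95% interval 0.44 to 0.47), and gRNA2 without doxycycline was already 1.22-fold higher than CTL (log2 ratio 0.28, 0.27 to 0.30). Within gRNA2 cells the doxycycline library was 1.03-fold higher (log2 ratio 0.05, 0.03 to 0.06). Of 10532 genes with at least 100 reads in every library, 11.6% had a range over the 4 libraries at least as wide as EGFR. In bulk RNA, fewer cells of a type and less RNA per cell cannot be told apart.

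Reads that also fall in an antisense gene were set aside in the unstranded counts. The sum of the 2 strand-specific counts of EGFR exceeded its unstranded count by 3276 to 4483 reads, 5.02% to 6.21% of that sum. For EGFR-AS1, a gene on the opposite strand within EGFR, 98.9% to 99.3% of the strand-specific sum was set aside in this way. Assigned reads split evenly over the strands (49.0% to 49.1% fell on the first), so reads of EGFR and EGFR-AS1 cannot be told apart. For ERBB2 the set-aside share was 1.03% to 2.03%, and for the other members it was 0.

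ERBB2 (chr17:39688094-39728658), the partner receptor that is amplified in another class of breast tumour, had 288 and 294 reads in CTL cells without and with doxycycline and 387 and 270 in gRNA2 cells. Its levels of 14.1, 13.1, 14.9 and 12.4 CPM form an order in which no neighbouring libraries differed beyond counting error. In gRNA2+dox the log2 ratio was -0.26 against gRNA2, with an interval of -0.49 to -0.04.

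ERBB3 (chr12:56080108-56103505), the neuregulin receptor, had 1639 reads in CTL and 1676 with doxycycline, and 2131 in gRNA2 and 1486 with it, which gives 80.3, 74.4, 81.8 and 68.0 CPM. It was lowest in gRNA2+dox, with a log2 ratio of -0.27 (-0.36 to -0.17) against gRNA2 and -0.13 (-0.23 to -0.03) against CTL+dox. CTL and gRNA2 did not differ beyond counting error (log2 ratio 0.03, -0.07 to 0.12).

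ERBB4 (chr2:211375717-212538802), the other neuregulin receptor, had 1 and 2 reads in CTL cells without and with doxycycline and 2 and 1 in gRNA2 cells. These are under 3 reads, the number that a count of 0 still allows and which equals 0.114 to 0.150 CPM here, so no ratio is given.

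Per exon length, EGFR stood at 168 and 154 RPKM (CPM per kb of exon) in CTL cells without and with doxycycline and at 204 and 211 RPKM in gRNA2 cells, between the 98.5 and 98.9 percentiles of 13912 tested genes with a length. ERBB3 had 5.81 to 6.99 RPKM and ERBB2 1.20 to 1.44 RPKM, against a median of 3.62 to 3.72 RPKM over those genes. EGFR thus made 95.3% to 96.8% of the summed receptor level per length, and ERBB3 2.66% to 3.93%. These are RNA levels, and gene copy number was not measured.

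AREG, EREG and BTC lie in a ligand cluster on chromosome 4. The 250 bases before the annotated starts of EGFR, AREG and EREG are shown, EGFR as the dominant receptor and AREG and EREG as neighbours on the same strand whose RNA levels took different courses. They come from RefSeq (GRCh38.p14) at chr7:55018767-55019016, chr4:74444886-74445135 and chr4:74364895-74365144, all on the plus strand. Capitals mark matches, on either strand, to TATAAA (of core promoters), TGACGTCA (cyclic AMP response element), TGANTCA (AP-1), CCAAT and GGGCGG (the GC-rich box bound by SP factors), none of which overlap in these windows.
EGFR: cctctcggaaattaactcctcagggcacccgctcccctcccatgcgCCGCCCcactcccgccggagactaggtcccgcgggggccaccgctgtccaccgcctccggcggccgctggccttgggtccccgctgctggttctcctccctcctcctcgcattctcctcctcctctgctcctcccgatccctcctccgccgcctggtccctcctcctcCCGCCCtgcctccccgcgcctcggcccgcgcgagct
AREG: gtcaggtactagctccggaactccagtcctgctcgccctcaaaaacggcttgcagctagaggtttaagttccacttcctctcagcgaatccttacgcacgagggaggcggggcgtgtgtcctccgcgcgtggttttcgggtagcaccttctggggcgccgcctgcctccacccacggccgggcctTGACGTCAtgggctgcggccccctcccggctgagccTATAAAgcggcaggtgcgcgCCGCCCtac
EREG: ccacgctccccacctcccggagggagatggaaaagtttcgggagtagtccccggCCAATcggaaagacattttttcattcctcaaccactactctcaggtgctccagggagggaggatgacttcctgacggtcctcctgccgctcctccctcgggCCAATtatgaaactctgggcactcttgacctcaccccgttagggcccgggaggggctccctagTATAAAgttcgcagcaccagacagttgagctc
EGFR has 2 matches to GGGCGG and no TATAAA, AREG has TATAAA with its first base 29 bases before the start, 1 cyclic AMP response element and 1 match to GGGCGG, and EREG has TATAAA at 32 bases before the start and 2 CCAAT matches. TATAAA was present in 10.7% of 35097 promoter windows of this length, TGACGTCA in 1.65%, TGANTCA in 6.57%, CCAAT in 32.0% and GGGCGG in 42.6%. Of the 9 genes, 8 were matched to a promoter window, ERBB3 being the exception. A match describes letters only, and binding was not measured.

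AREG (chr4:74445136-74455005), amphiregulin, had 7775 and 9054 reads in CTL cells without and with doxycycline and 11445 and 8228 in gRNA2 cells, or 381, 402, 439 and 377 CPM. gRNA2 was the high library, and gRNA2+dox and CTL did not differ beyond counting error (log2 ratio -0.02, -0.06 to 0.03), although scaled by total counts only gRNA2+dox was lower (-0.07, -0.11 to -0.02). With doxycycline the log2 ratio was -0.22 (-0.26 to -0.18) within gRNA2 cells and 0.08 (0.03 to 0.12) within CTL cells.

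EREG (chr4:74365145-74388749), epiregulin, ends 56.4 kb before AREG starts. It had 546 reads in CTL and 577 with doxycycline, and 493 in gRNA2 and 328 with it, which gives 26.7, 25.6, 18.9 and 15.02 CPM. CTL and CTL+dox formed the high pair and did not differ beyond counting error, gRNA2 lay below both, and gRNA2+dox was lowest. The log2 ratio of gRNA2+dox was -0.33 (-0.54 to -0.13) against gRNA2. It was -0.77 (-0.97 to -0.57) against CTL+dox and -0.83 (-1.03 to -0.63) where CTL was the reference. Without doxycycline, gRNA2 was already lower than CTL by a log2 ratio of -0.50 (-0.68 to -0.32). EREG had the widest range of the 8 members, 1.78-fold, which 1.16% of the 10532 genes reached, against a median of 1.18-fold.

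TGFA (chr2:70447284-70553826), transforming growth factor alpha, had 7396 and 8862 reads in CTL cells without and with doxycycline and 8751 and 7533 in gRNA2 cells. At 362, 393, 336 and 345 CPM, it was highest in CTL+dox and lower in both gRNA2 libraries than in both CTL libraries. The log2 ratio of gRNA2+dox was -0.19 (-0.23 to -0.15) against CTL+dox, and within gRNA2 cells it did not differ beyond counting error (0.04, -0.01 to 0.08), although with DESeq2 size factors the interval was just above 0 (0.05, 0.0055 to 0.09).

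HBEGF (chr5:140332843-140346603), the heparin-binding ligand, had 1264 reads in CTL and 1134 with doxycycline, and 1576 in gRNA2 and 1137 with it, or 61.9, 50.3, 60.5 and 52.1 CPM. The doxycycline libraries were the low pair in both kinds of cells, which was also so for ERBB2 and ERBB3 (3 of 8 members, beside 15.8% of genes) and in the opposite direction for none (beside 16.1%). The log2 ratio with doxycycline was -0.30 (-0.41 to -0.18) in CTL cells and -0.22 (-0.33 to -0.11) in gRNA2 cells.

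BTC (chr4:74744759-74794523), betacellulin, had 102 and 120 reads in CTL cells without and with doxycycline and 145 and 115 in gRNA2 cells. Its 4.99, 5.33, 5.57 and 5.27 CPM held no neighbouring pair that differed beyond counting error.

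Per exon length, AREG had 229 to 268 RPKM, TGFA 68.3 to 80.0, HBEGF 16.8 to 20.7, EREG 2.63 to 4.68 and BTC 1.88 to 2.10. AREG made 69.7% to 74.0% of the summed level of these 5 ligands per length and TGFA 18.9% to 23.0%. EREG made 1.41% of that sum in CTL and 0.817% in gRNA2+dox. With all exons counted, AREG was above EGFR in every library, at 229 RPKM against 211 RPKM in gRNA2+dox. With the length of the canonical transcript instead, EGFR (340 RPKM) was above AREG (305 RPKM) in gRNA2+dox and below it in the other 3, and ERBB2 (2.71 to 3.26 RPKM) was above BTC, so neither order is firm.

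The members were then compared between libraries. A gene was past the cutoffs where its log2 ratio was beyond 1 and the 1% bound of that ratio under counting error was beyond 0.5. The form of these cutoffs follows the study, which used a GFOLD value for lower genes. GFOLD was not run here, the bound stands in its place, and both directions were counted. In gRNA2+dox against gRNA2, 0 of 8 members were past them lower or higher, beside 0.296% and 0.303% of all tested genes. The number was also 0 of 8 against CTL+dox (1.03% of genes lower, 0.487% higher), against CTL (0.848% and 0.447%), in CTL+dox against CTL (0.171% and 0.0855%) and in gRNA2 against CTL (0.414% and 0.151%).

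At a lower bar, a ratio of at least 1.5-fold with an interval clear of 0, EREG was the 1 member past it, lower in gRNA2+dox than in either CTL library. The shares of all genes at that bar were 4.18% against CTL+dox and 3.73% against CTL. In gRNA2+dox against gRNA2, 0 of 8 members passed it in either direction, beside 2.39% of genes lower and 1.7% higher. No member passed it higher in gRNA2+dox against CTL+dox (2.59% of genes) or against CTL (1.92%). Likewise 0 of 8 passed in CTL+dox against CTL (1.68% lower, 1.45% higher) and in gRNA2 against CTL (2.52% lower, 1.55% higher).

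In gRNA2+dox against gRNA2, 6 of 8 members had a ratio below 0, beside 54.2% of genes, with a median log2 ratio of -0.22 against -0.02 over all tested genes. Both EGFR and TGFA lay just above 0. Against CTL+dox 6 of 8 were below 0 (49.8% of genes) with a median of -0.09, and against CTL 6 of 8 (48.3%) with a median of -0.13. In CTL+dox against CTL 5 of 8 were below 0 (47.7%) and in gRNA2 against CTL 3 of 8 (44.5%), with medians of -0.09 and 0.05. The member counts and medians above use TMM scaling. Scaled by total counts only, the shares of all genes below 0 were 58.9% in gRNA2+dox against CTL and 54.7% in gRNA2 against CTL. Under that scaling the member medians were -0.18 and 0.003, and ERBB3 also fell below 0 in gRNA2 against CTL (-0.02). These comparisons share libraries and are not independent. By order of levels, 4 of 8 members were lowest in gRNA2+dox (ERBB2, ERBB3, AREG and EREG, beside 26.3% of genes) and 1, EGFR, was highest there (23.8%). For ERBB2 and AREG the next library up did not differ from gRNA2+dox beyond counting error. EGFR alone was higher in both gRNA2 libraries than in both CTL libraries (24.8% of genes), and EREG and TGFA were lower in both (20.5%).

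**Figure D2:**
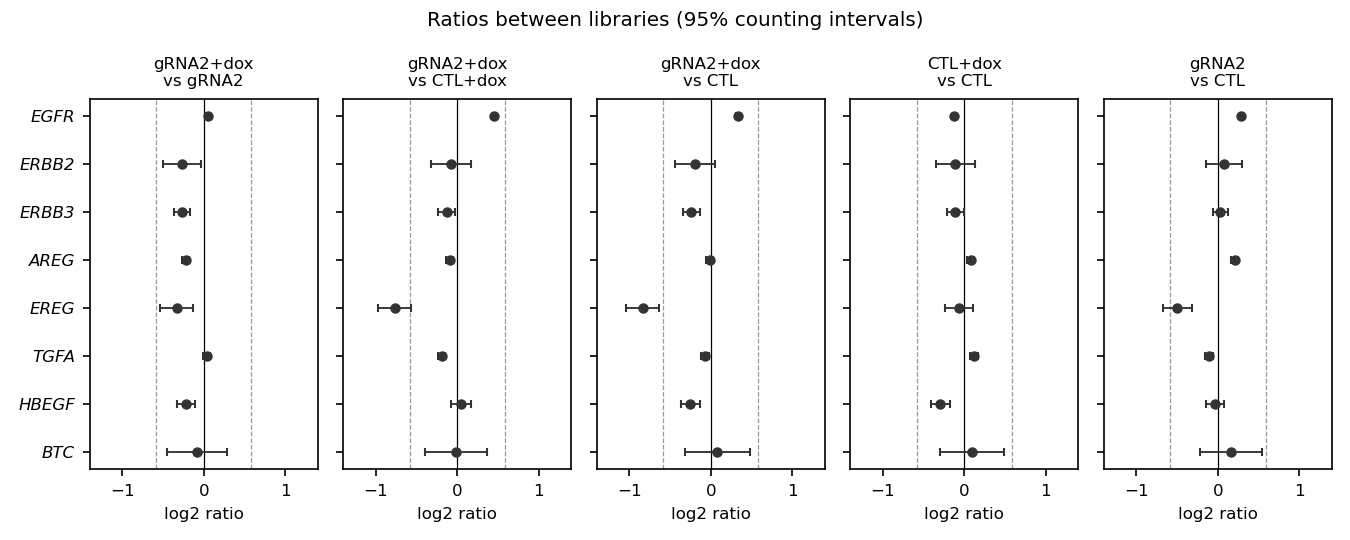
Log2 ratio of each gene between libraries (horizontal axes) in the 5 comparisons, with exact 95% intervals of the counts. Dashed lines mark 1.5-fold; EREG lies past the lower line against CTL+dox (-0.77) and CTL (-0.83), and EGFR is at 0.46 against CTL+dox.

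Of the 40 ratios, 8 members in 5 comparisons, 25 had an interval clear of 0 from counting error alone. Where an assumed coefficient of variation of 0.1 between cultures was added, 4 did: EGFR in gRNA2+dox against CTL+dox (0.06 to 0.86), and EREG in gRNA2+dox against CTL+dox (-1.21 to -0.32), in gRNA2+dox against CTL (-1.28 to -0.39) and in gRNA2 against CTL (-0.94 to -0.06). The true spread between cultures was not measured.

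Doxycycline was given to both kinds of cells, so the ratio with over without it can be set side by side. The difference of these log2 ratios, gRNA2 cells minus CTL cells, was 0.17 ± 0.01 for EGFR (SE from counts) and -0.30 ± 0.03 for AREG. It was -0.27 ± 0.13 for EREG, -0.16 ± 0.07 for ERBB3 and -0.08 ± 0.03 for TGFA. ERBB2 (-0.15 ± 0.17), HBEGF (0.08 ± 0.08) and BTC (-0.17 ± 0.26) had intervals that hold 0. None of the 8 differences reached 1.5-fold, beside 3.15% of genes lower and 2.39% higher, and the difference in AREG was at least matched in size by 30.3% of genes.

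**Figure D3:**
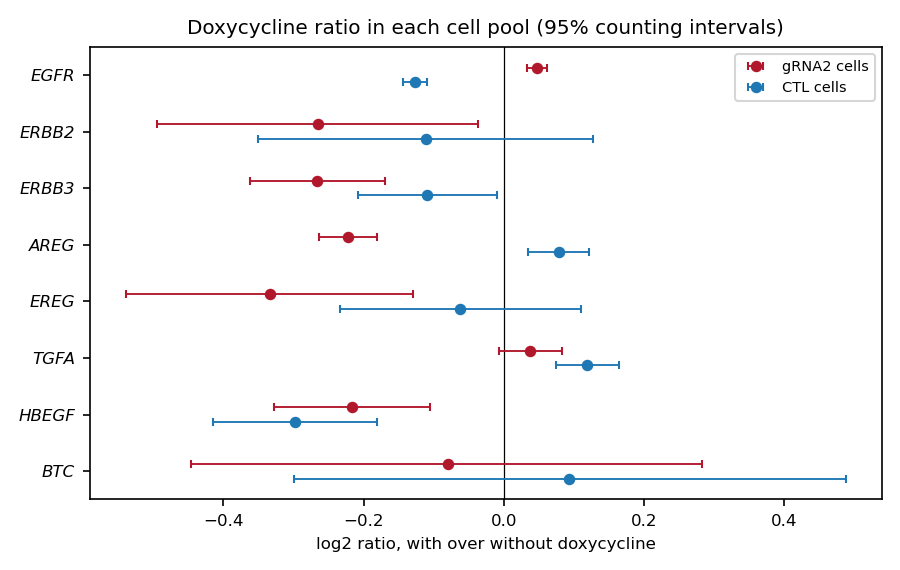
Log2 ratio of the library with doxycycline over that without it (horizontal axis) for each gene, in gRNA2 cells and in CTL cells, with exact 95% intervals of the counts. AREG is at -0.22 in gRNA2 cells and 0.08 in CTL cells, and EGFR at 0.05 and -0.13.

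By a measure of likeness, the distance of centred log2 levels over the 4 libraries among the 10532 genes, the nearest patterns to EREG were PROM1 (distance 0.04), which encodes a membrane protein, BMP7 (0.07), a bone morphogenetic protein, and TOP2A (0.08), a topoisomerase of dividing cells. PROM1 had 53.2 CPM in CTL and 52.5 with doxycycline, against 39.0 in gRNA2 and 30.7 with it. The nearest to EGFR were STK10 (0.01), SOGA1 (0.01) and SAFB2 (0.04). STK10, a serine/threonine kinase, had 53.0, 49.0, 64.3 and 67.1 CPM in the same order. With 4 libraries many genes share a pattern, and the likeness is a description.

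Genes around EGFR on chromosome 7 were also followed, since an amplified segment can hold more than 1 gene. Of 16 listed neighbours 14 were tested, and 11 of these lay above the median RPKM of tested genes in every library. SEC61G, a subunit of the translocation channel of the endoplasmic reticulum, had 697 to 935 RPKM, and VOPP1 had 235 to 288 RPKM. LANCL2 had 49.1 to 62.6 RPKM, below EGFR in all 4 libraries. FKBP9P1, a pseudogene whose reads may be shared with its parent gene, had 52.5 to 71.4 RPKM.

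None of the 14 was past the cutoffs in any comparison. At 1.5-fold, EGFR-AS1 was higher in gRNA2+dox over CTL+dox (49 and 26 reads, after the strand overlap above), and PHKG1 was lower in gRNA2+dox and in CTL+dox than in CTL. The log2 ratios with the widest difference between gRNA2+dox and gRNA2 among the better-counted neighbours were -0.57 for ZNF713, -0.44 for FKBP9P1, 0.29 for VOPP1 and 0.24 for CHCHD2. In gRNA2 against CTL the median of the neighbours was 0.14, where EGFR was at 0.28. Against CTL+dox, gRNA2+dox had a neighbour median of 0.04, where EGFR was at 0.46.

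**Figure D4:**
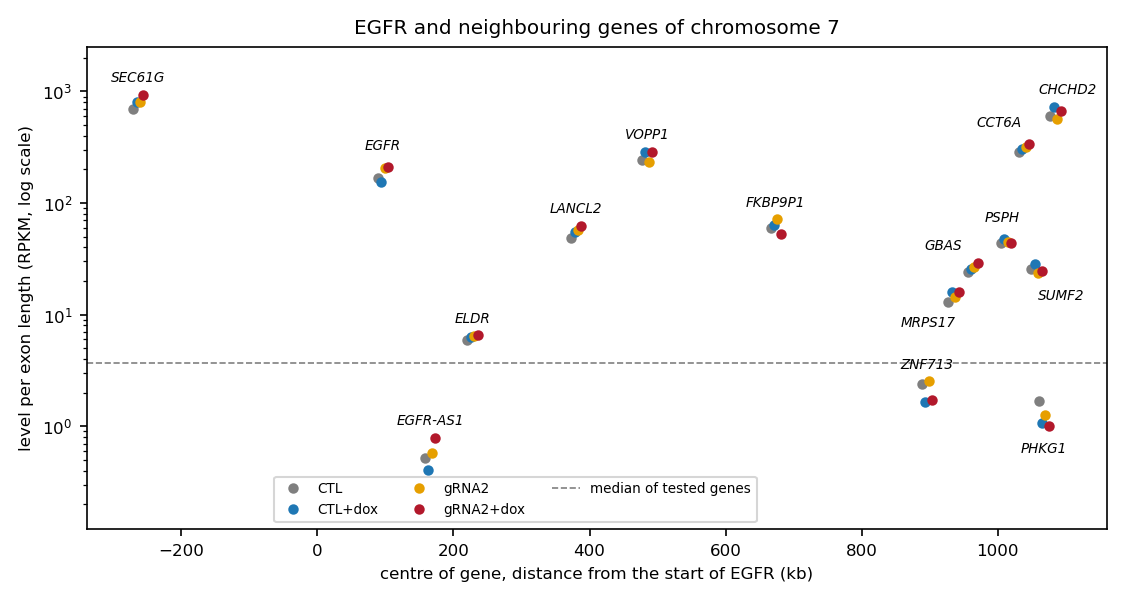
Level per exon length (RPKM, log scale) of EGFR and 14 neighbouring genes in the 4 libraries, placed by the distance of the centre of each gene from the start of EGFR in kb (points of a gene are set slightly apart). The dashed line is the median of tested genes; SEC61G, VOPP1, CCT6A and CHCHD2 lie above EGFR with all exons counted (canonical lengths were not tried for the neighbours).

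Other ligands of the family were mostly low. EGF itself had 251 reads in CTL and 331 with doxycycline, and 337 in gRNA2 and 226 with it. Its log2 ratio in gRNA2+dox was -0.32 (-0.57 to -0.07) against gRNA2 and -0.51 (-0.76 to -0.26) against CTL+dox. Against CTL the interval held 0 (-0.25, -0.51 to 0.02), and CTL+dox was above CTL (0.26, 0.02 to 0.50). These reads are RNA of the cells and not the EGF of the medium. EPGN, epigen, had 907, 1124, 1057 and 926 reads and a log2 ratio of 0.06 (-0.07 to 0.19) against gRNA2. At 12.3 to 15.1 RPKM, EPGN was not low and lay above the median of tested genes in every library. Of 6 such ligands 3 were tested, none past the cutoffs, and NRG2, with 28 to 52 reads, was past 1.5-fold lower against CTL. The neuregulins NRG1, NRG3 and NRG4 had at most 5 reads in any library.

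Of 8 genes of ligand release, 1 was past the cutoffs: ADAM12, a metalloprotease, with 19 and 27 reads in CTL cells without and with doxycycline and 8 and 4 in gRNA2 cells. ADAM12 met the count filter through its reads in the CTL libraries only, where it was higher. Its log2 ratio in gRNA2+dox was -2.57 (-4.69 to -1.19) against CTL+dox and -2.21 (-4.36 to -0.76) against CTL. The shares of all genes past the cutoffs lower were 1.03% and 0.848% in these comparisons. Against gRNA2 the ratio was -0.69 (-2.93 to 1.154). Without doxycycline, ADAM12 was already lower in gRNA2 than in CTL (-1.53, -3.0 to -0.34). ADAM17 and ADAM10, the main sheddases of these ligands, differed between gRNA2+dox and gRNA2 by log2 ratios of 0.08 (-0.01 to 0.17) and 0.02 (-0.06 to 0.10).

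Among 15 genes of receptor feedback and degradation none was past the cutoffs. SOCS3, a cytokine-induced inhibitor of signalling, was the 1 gene past 1.5-fold, with 1488 reads in CTL and 1871 with doxycycline, and 2425 in gRNA2 and 3179 with it. Its log2 ratio was 0.65 (0.57 to 0.72) over gRNA2, 0.81 over CTL+dox and 0.998 over CTL. ERRFI1, the feedback inhibitor that binds the EGFR kinase, had a ratio of -0.18 against gRNA2, while USP8 was at -0.23 and SOCS5 at 0.18.

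None of the 18 adaptors and PI3K subunits was past 1.5-fold in any comparison. Between gRNA2+dox and gRNA2 they ranged from -0.29 (PIK3R1) to 0.27 (CRK) on the log2 scale, with PLCG1 at -0.22, PIK3CA at 0.14 and a median of -0.05. None of the 14 genes of ERK output was past 1.5-fold either. ETV4, an ETS factor induced by ERK, had 1295 and 1405 reads in CTL cells without and with doxycycline and 1653 and 1011 in gRNA2 cells, and its log2 ratio was -0.45 over gRNA2, -0.43 over CTL+dox and -0.45 over CTL. SPRY1 (-0.43), ETV5 (-0.34) and EGR1 (-0.29) had the next widest ratios against gRNA2, but EGR1 was at 0.39 against CTL+dox. The list had 11 of 14 genes below 0 against gRNA2 and 5 of 14 against CTL+dox, beside 54.2% and 49.8% of all genes. In gRNA2 against CTL, both without doxycycline, 13 of 14 lay above 0 and 1 below, beside 44.5% of all genes below 0. The list median was 0.17, against 0.03 over all tested genes. Scaled by total counts only, 54.7% of all genes lay below 0 in this comparison, but the list counts given here use TMM scaling only. Of the genes above 0, ETV4 (0.001, -0.105 to 0.107), SPRED1 (0.04, -0.14 to 0.22) and ETV5 (0.13, -0.04 to 0.31) had intervals that held 0.

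**Figure D5:**
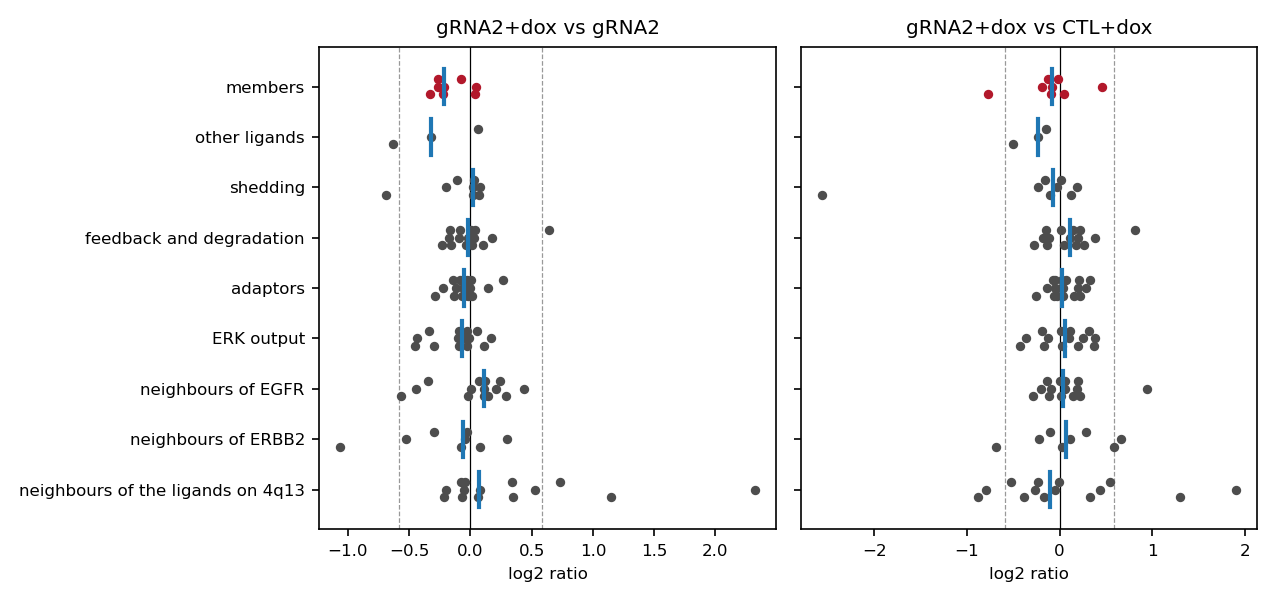
Log2 ratio (horizontal axes, each panel with its own range) of each tested gene of the family and of the lists around it, in gRNA2+dox against gRNA2 and against CTL+dox. Points are genes, blue bars are medians and dashed lines mark 1.5-fold; the family members span -0.33 to 0.05 in the first panel and -0.77 to 0.46 in the second.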

How the data were processed

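RNA was extracted with TRIzol from 1 mammosphere culture per condition (several plates pooled) and sequenced. The authors trimmed reads with fastp and aligned them with STAR, and deposited its raw counts of reads per gene, unnormalised, with an unstranded column and 2 strand-specific columns. Per the submitters' processing notes the build was hg38. STAR's version and the annotation are not given in the sources used here. Reads mapping to several places (3.39% to 4.85% of all reads) and ambiguous reads (2.09% to 2.17%) were not assigned to genes.

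From the unstranded counts, TMM factors were computed with edgeR 4.0.16 in R 4.3.3, and log2 ratios with a prior count of 0.5 in Python 3.11.15. A gene was kept where 1 or more libraries reached 10 counts. Intervals of ratios are exact 95% Clopper-Pearson intervals and those of levels exact Poisson intervals; like the floor of 3 counts, they cover counting error only. The 1% bound was a quantile of the posterior log2 ratio under counting error. It was checked on counts simulated with counting error only, so the check does not cover spread between cultures. No p-value is given, because each condition has 1 library and no residual spread can be estimated. SEs of the doxycycline differences come from the counts. Exon lengths came from GENCODE 44 lifted to GRCh37, matched by symbol for 91.5% of tested genes, and coordinates from RefSeq on GRCh38.p14. Only RNA levels per length were compared between genes.

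The members and gene lists were chosen with earlier results of these data known. Not every gene of the marker lists is given. Named genes were all members, TCOF1, list genes past the cutoffs (or else up to 4 with the largest ratio against gRNA2 and at least 100 counts in every library) and the 3 nearest patterns to the members with the widest ranges, EREG and EGFR. Other list genes, those past 1.5-fold, those with few counts, ADAM10, ADAM17 and the neighbours given by level, were named after their values were seen. The alternatives tried were size factors of DESeq2 1.42.0, scaling by totals alone, other filters, a prior count of 5, thinning to the smallest total, summed strands, a 5% bound, a coefficient of variation of 0.1 and canonical transcript length.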

Additional observations from a re-analysis of the deposited data

Results flagged for a closer look

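In 2 genes the doxycycline ratio had opposite directions in the 2 kinds of cells, each with a counting interval clear of 0. For EGFR the log2 ratio was 0.05 in gRNA2 cells and -0.13 in CTL cells, a difference of 0.173 (0.151 to 0.196). For AREG it was -0.22 in gRNA2 cells and 0.08 in CTL cells, a difference of -0.300 (-0.360 to -0.240). The difference across cultures was not tested, since each condition has 1 library. A difference at least as large in size was seen in 49.4% of tested genes for EGFR and in 30.3% for AREG.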

How the results depend on the processing

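No paired analysis was possible because no condition was sequenced more than once, nor could a library be left out of a group. Under all alternatives run, 0 of 8 members were past the cutoffs in the 5 comparisons, and EREG stayed the 1 member past 1.5-fold, lower against CTL+dox and CTL. The doxycycline difference of EGFR, 0.173, became 0.198 with DESeq2 size factors and 0.196 with total counts only. The log2 ratio of EGFR in gRNA2 against CTL, 0.28, became 0.26 and 0.23 under these scalings, outside its counting interval. With total counts only, EGFR in gRNA2+dox also left its interval, at 0.27 against CTL (from 0.33) and 0.43 against CTL+dox (from 0.46). The median ratio of the members moved from -0.13 to between -0.18 and -0.07 in gRNA2+dox against CTL, and from 0.05 to between 0.00 and 0.08 in gRNA2 against CTL. Ratios that crossed 0 were BTC in CTL+dox against CTL (-0.01 to 0.09) and in gRNA2+dox against CTL+dox (-0.04 to 0.03), and ERBB3 in gRNA2 against CTL (-0.02 to 0.05). Among the scalings, the counting interval came clear of 0 for 2 more ratios of members: with total counts only, AREG in gRNA2+dox against CTL, and with DESeq2 size factors, TGFA in gRNA2+dox against gRNA2.

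The number of all genes past the cutoffs in gRNA2+dox against gRNA2, 45 lower and 46 higher, was 69 and 59 with no filter, 17 and 21 with at least 50 counts, 125 and 95 with a 5% bound and 14 and 25 with a coefficient of variation of 0.1. The same 3 last settings moved it against CTL+dox (156 and 74) to 98 and 42, 263 and 138, and 87 and 47, and against CTL (129 and 68) to 78 and 42, 236 and 118, and 71 and 37. For CTL+dox against CTL (26 and 13) they gave 4 and 1, 84 and 68, and 5 and 0, with 43 and 24 without a filter, and for gRNA2 against CTL (63 and 23) 32 and 6, 124 and 70, and 36 and 6. With at least 50 counts, the genes past 1.5-fold fell from 363 lower and 259 higher to 221 and 128 in gRNA2+dox against gRNA2, from 635 and 394 to 408 and 244 against CTL+dox, from 567 and 292 to 359 and 186 against CTL, from 256 and 220 to 123 and 101 in CTL+dox against CTL, and from 383 and 236 to 188 and 136 in gRNA2 against CTL. Per-length levels with canonical transcript length, an alternative chosen after seeing the data, changed the order of EGFR and AREG and of ERBB2 and BTC. Depth limits what the ratios of genes with few reads, such as BTC and ADAM12, can show, and ERBB4 had too few for any.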

Other observations

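The chromosome 4 segment of AREG, EREG and BTC also holds a group of chemokine genes that recruit neutrophils. Of 14 listed neighbours, CXCL5 was past the cutoffs higher in gRNA2+dox, with 51 and 37 reads in CTL cells without and with doxycycline and 32 and 136 in gRNA2 cells. Its log2 ratios were 2.32 (1.78 to 2.95) against gRNA2, 1.91 (1.39 to 2.49) against CTL+dox and 1.31 (0.84 to 1.81) against CTL. The shares of all genes past the cutoffs higher were 0.303%, 0.487% and 0.447% in these comparisons. Without doxycycline, CXCL5 was lower in gRNA2 than in CTL (-1.01, -1.71 to -0.36). CXCL2 had 92, 74, 127 and 177 reads in the same order and was past the cutoffs higher against CTL+dox, with a log2 ratio of 1.30 (0.90 to 1.71). PPBP, also a chemokine of this group, had 12203, 18325, 9688 and 10251 reads and a log2 ratio of -0.79 (-0.83 to -0.76) against CTL+dox. Its ratio was 0.34 (0.295 to 0.38) against gRNA2, and gRNA2 was at -0.68 against CTL. PARM1 had 339, 371, 267 and 195 reads, a log2 ratio of -0.88 (-1.14 to -0.63) against CTL+dox and -0.20 (-0.47 to 0.07) against gRNA2. For PARM1 too, gRNA2 was already below CTL (-0.69, -0.93 to -0.46). In gRNA2 against CTL, 4 of the 14 were past 1.5-fold lower (PPBP, CXCL5, PARM1 and, on 16 to 32 reads, PF4). None was past it higher, and the shares of all genes were 2.52% lower and 1.55% higher. The median of the 14 against gRNA2 was 0.07.

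Of 12 listed neighbours of ERBB2 on chromosome 17, 8 were tested and none was past the cutoffs. PPP1R1B, an inhibitor of protein phosphatase, had 188 reads in CTL and 213 with doxycycline, and 188 in gRNA2 and 128 with it. Its log2 ratio was -0.69 (-1.02 to -0.37) against CTL+dox and -0.30 (-0.64 to 0.03) against gRNA2. GSDMB was past 1.5-fold higher against CTL+dox (0.59, 0.20 to 0.99), where 3 neighbours lay below 0 and 5 above. On few reads, PGAP3 (29 to 50) was past 1.5-fold lower in gRNA2+dox and in CTL+dox than in CTL. IKZF3 (7 to 28 reads) was past it lower against gRNA2 and higher in gRNA2 against CTL. STARD3, a lipid transfer protein gene near ERBB2, was at -0.08, MIEN1 at -0.04 and ORMDL3 at 0.08 against gRNA2.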
